A study of Mus musculus with 8 samples.

Results

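The early and the late effect of MPTP on the mouse retina were set against each other by a single quantity per gene, the MPTP effect at 4 weeks minus the MPTP effect at 1 week. An effect is the mean log2 signal of the MPTP arrays minus that of the saline arrays of the same time, and a difference of 1 on this scale is 2-fold. A negative difference of effects therefore means that the MPTP retinas stood lower against their controls late than early. The genes described are those whose mean log2 signal over all 8 arrays was at least 7, which holds for 9895 of the 19938 genes measured, and 10043 genes lay below that level. Adcyap1r1 was the nearest gene inside the limit, with a mean of 7.00003 and a difference of effects of 0.10. Abcb10 was the nearest outside it, with a mean of 6.99984 and a difference of effects of 0.15.

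The arrays hold retinal RNA of male C57BL/6 mice, 6 weeks old at the start, that were injected with saline or with MPTP and studied 1 week (7 days) or 4 weeks (28 days) later. The 4 groups are thus saline 1 week, MPTP 1 week, saline 4 weeks and MPTP 4 weeks, with 6 mice and 2 arrays each. Each array received RNA pooled from 4 retinas, of which 100 ng was amplified, and 8 of the 12 retinas in each group were used. Neither the dose of MPTP nor the mice behind each pool are given in the labels, so that p-values measure only the spread between these arrays, which may be technical. In whole-retina RNA, fewer cells of a type and less RNA per cell cannot be told apart.

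MPTP is converted by monoamine oxidase B to MPP+, which enters dopaminergic neurons through the dopamine transporter and blocks complex I of the mitochondrial respiratory chain. In the retina the dopaminergic cells are a sparse class of amacrine cells, interneurons that release dopamine in the light and adjust the retina to daylight. Nerve tissue under stress can also switch on interferon-stimulated genes, such as the Ifit family, and can drive Mueller glia, the radial support cells of the retina, into gliosis.

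Neither treatment nor time gave the largest spread between arrays. Over all genes, principal component 1 (38.3% of the variance) set saline 1 week array 2 (15.7) and MPTP 1 week array 1 (19.1) apart from the other 6 arrays (-9.39 to -0.39). The same 2 arrays had a wider spread of log2 signal over genes, with interquartile ranges of 1.90 and 1.92 against 1.65 to 1.74, and the lowest medians, 6.95 and 6.95 against 6.98 to 7.02. The part of this spread in the counts and directions below was not tested. All arrays correlated at r = 0.989 to 0.996 across genes. The retinal label was borne out by rod genes, whose list mean lay between 10.96 and 11.11 on every array. Markers of neighbouring eye tissue were present too, most of all on MPTP 1 week array 2. There the mean of 9 lens genes was 8.78 against 7.47 to 8.29 on the other arrays, and that of 7 pigment epithelium genes was 8.79 against 8.03 to 8.66.

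Most genes with a difference of effects stood higher in MPTP retinas at 1 week and no longer, or lower, at 4 weeks. Of the 9895 genes, 69 (0.697%) had an unadjusted p under 0.05 for the difference of effects in the limma fit, 51 lower late than early (0.515%) and 18 higher (0.182%). This threshold admits 5% of tests where nothing differs, so 69 genes is a small number for it, and none passed after Benjamini-Hochberg adjustment over all genes (limma, smallest adjusted p among the 69 of 0.9999). Below the signal limit the direction was the opposite, with 266 of 322 genes (3.21% of those below it) higher late than early, and there too none passed. The values below therefore describe these 8 arrays, and a gene counted among the 69 is called a candidate.

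The direction of the split depended on the scaling and on single arrays. Over all 9895 genes the median difference of effects was -0.03 with 60.9% of genes below 0, and 73.9% of the candidates were lower late than early. After quantile normalization that share was 57.9% (55 lower and 40 higher), and after cyclic loess normalization it was 54.0% (47 lower and 40 higher). Of the 69 candidates, 58 were again among the 95 genes under the threshold after quantile normalization and 56 among the 87 after cyclic loess. Without MPTP 1 week array 1 the split turned, to 33 lower and 41 higher (44.6% lower). It was 54.9% lower without saline 1 week array 1 and 54.8% without saline 4 weeks array 1, and between 68.9% and 80.5% with any other array left out.

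The candidates were sorted by shape. A response was called transient where the 1 week effect was at least 3 times the 4 week effect in size, late where the 4 week effect was at least 3 times the 1 week effect, and reversed where neither held and the signs were opposite. By this sorting 42 candidates (60.9%) were reversed, 24 (34.8%) transient and 2 (2.90%) late, and 1 gene had the same direction at both times. The difference of effects itself selects for opposite signs, so the shares are a description and not a test. Among all 9895 genes, sorted by size alone whatever their p, 36.2% had the same direction at both times, 15.1% were reversed from higher to lower and 8.60% from lower to higher. Transient shapes made up 14.4% (higher) and 8.16% (lower) and late shapes 6.16% (higher) and 11.5% (lower). Across these genes the effects at 1 and 4 weeks had a correlation of 0.32, from separate arrays at each time.

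**Figure D1:**
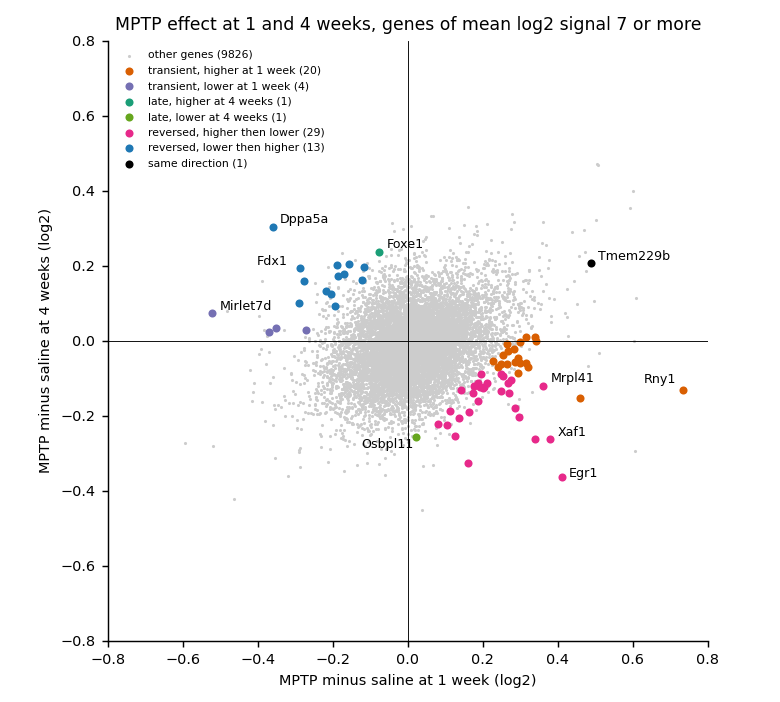
Each point is a gene of mean log2 signal 7 or more; the x axis is MPTP minus saline at 1 week and the y axis MPTP minus saline at 4 weeks, both in log2 units, with the 69 candidates coloured by shape and the 9826 other genes in grey. The 29 genes that went from higher to lower lie to the lower right of the centre and the 13 that went from lower to higher to the upper left.

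Each effect alone called more genes at the same unadjusted threshold than their difference did. The difference draws on all 4 groups and has a larger standard error by design (median 0.140 against 0.0992), which makes calls rarer. At 1 week, 350 genes (3.54%) were under the threshold, 233 higher (2.35%) and 117 lower (1.18%) in MPTP. At 4 weeks there were 109 (1.10%), 35 higher (0.354%) and 74 lower (0.748%). Both shares are below the 5% that this threshold admits where nothing differs. MPTP and saline arrays did not overlap for 28.8% of genes at 1 week and for 37.5% at 4 weeks. With 2 arrays against 2, no overlap is frequent also where nothing differs, so here and below it does not mark a gene by itself. Higher at 1 week and lower at 4 weeks, with no overlap at either time, were 199 genes (2.01%), and the opposite course was seen in 56 (0.566%). No overlap in a constant direction was more frequent, with 335 genes (3.39%) higher and 450 (4.55%) lower at both times.

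The 29 candidates reversed from higher to lower had a median effect of 0.20 at 1 week and -0.14 at 4 weeks. For 23 of them no MPTP array overlapped with the saline arrays of its time, against 2.01% of all 9895 genes with this course. The p threshold and the shape select for such genes. Mrpl41, a protein of the large subunit of the mitochondrial ribosome, had the smallest unadjusted p of the 69 genes. Its log2 signal was 9.71 and 9.53 in saline and 9.95 and 10.01 in MPTP at 1 week, then 9.69 and 9.68 in saline and 9.56 and 9.57 in MPTP at 4 weeks. Saline was nearly level over time, while both MPTP arrays lay above it early and below it late. The effects were 0.36 ± 0.09 (limma SE, n = 2 arrays per group here and below) and -0.12 ± 0.09, with a difference of -0.48 ± 0.13 (limma, unadjusted p = 0.00413). With the mean of the probe sets of Mrpl41 in place of the brightest, the difference was -0.29, so its probe sets did not respond alike.

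Prmt8, an arginine methyltransferase found mainly in neurons, followed the same course. Saline arrays read 7.23 and 7.37 at 1 week and 7.37 and 7.41 at 4 weeks, and MPTP arrays read 7.61 and 7.56 and then 7.19 and 7.23. The groups did not overlap at either time, and the difference of effects was -0.46 ± 0.13 (limma, unadjusted p = 0.00434).

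Haus6, a subunit of the augmin complex that nucleates microtubules on the spindle, read 7.06 and 7.08 in saline against 7.54 and 7.19 in MPTP at 1 week. At 4 weeks it read 7.11 and 7.14 in saline against 6.83 and 7.02 in MPTP, for a difference of effects of -0.50 ± 0.17. MPTP 1 week array 1 was the highest by far, and without it the difference was -0.33. The zinc finger protein gene Zfp623 had a difference of effects of -0.41 ± 0.14, and -0.25 without the 2 arrays that stand apart.

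Xaf1, an interferon-induced gene whose product antagonizes the apoptosis inhibitor XIAP, had the largest difference of effects among the reversed genes that did not overlap at either time. It read 6.92 and 7.39 in saline against 7.62 and 7.45 in MPTP at 1 week. At 4 weeks it read 7.16 and 6.96 in saline against 6.82 and 6.78 in MPTP. The effect was 0.38 ± 0.15 early (1.30-fold) and -0.26 ± 0.15 late (0.834-fold), a difference of -0.64 ± 0.21 (limma, unadjusted p = 0.0110). The saline arrays at 1 week lay far apart, and without the lower of them, array 1, the difference was -0.41.

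The plots of the named genes by array show the same values. Other candidates of this shape, named after their values were seen, include Hmgb1, a chromatin protein that acts as a danger signal outside the cell, at -0.60 ± 0.25, and Mterf2, a regulator of mitochondrial transcription, at -0.35 ± 0.14. Also among them were Suv39h2, a histone H3 methyltransferase, at -0.33 ± 0.12, Pcgf6, a Polycomb subunit, at -0.30 ± 0.12 and Paf1, of the elongation complex named after it, at -0.28 ± 0.12. Hmgb1 overlapped with saline at 1 week, and the other 4 of these 5 genes did not. At 4 weeks only Mterf2 among the 5 overlapped with saline.

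**Figure D2:**
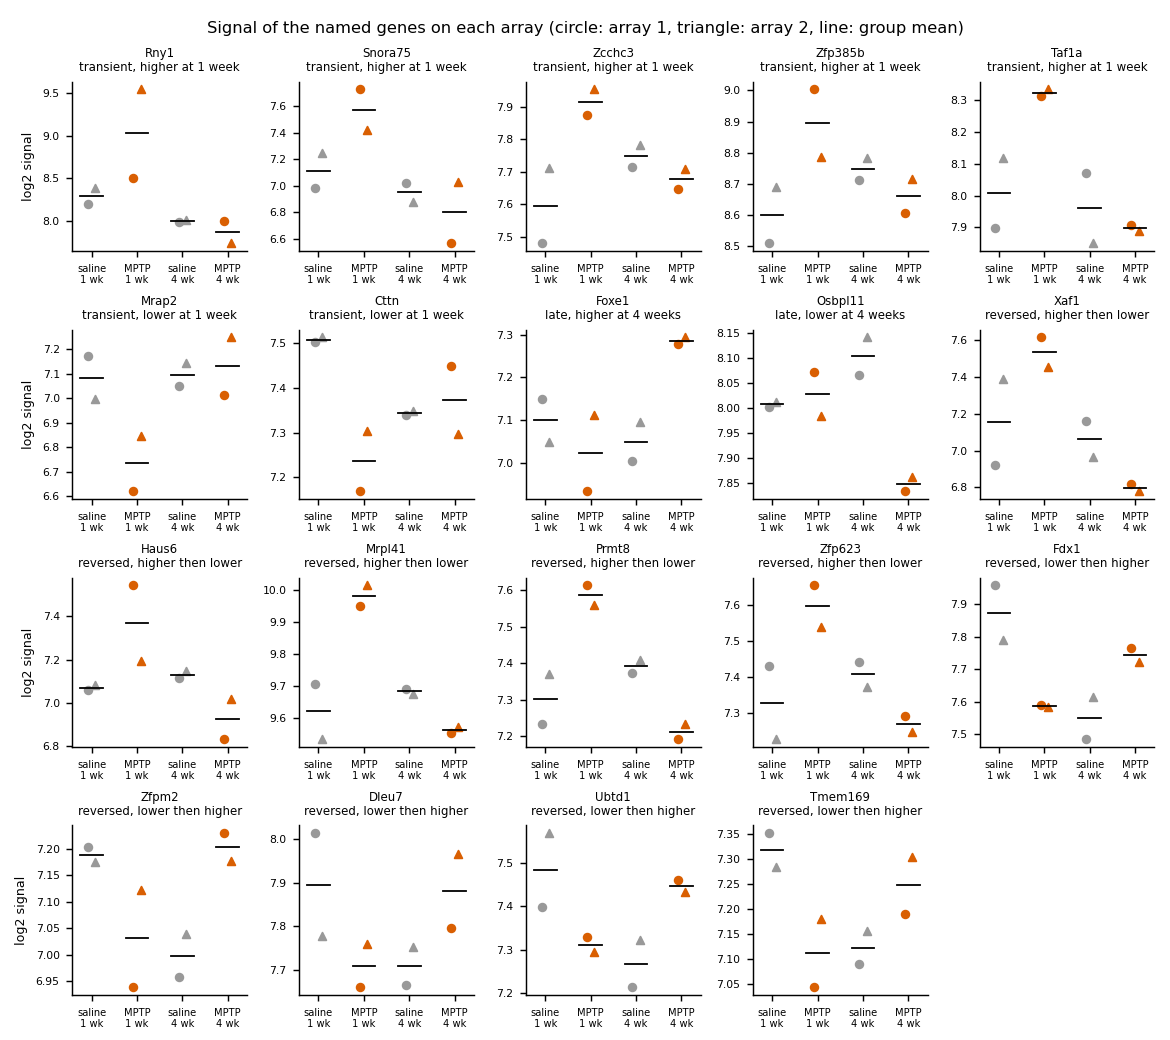
Each panel is a named gene; the y axis is log2 signal, the x axis the 4 groups, circles are array 1, triangles array 2 and lines group means, grey for saline and orange for MPTP. Axes differ between panels and do not start at 0; Xaf1, Mrpl41 and Prmt8 stand above saline at 1 week and below it at 4 weeks, and Fdx1 the other way round.

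Interferon-stimulated genes are presented next because Xaf1 belongs to them. Many carry an interferon-stimulated response element, a short motif, in their promoters. The 250 bases before the start are shown for Xaf1 and for Ifit1 and Ifit3, the next genes of the list by p, from the RefSeq annotation of GRCm38.p6, plus strand, with matches to the core of this element in capitals. The core was taken as GAAA, any 2 bases and GAAA, or TTTC, any 2 bases and TTTC on the other strand.

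Xaf1 promoter, chr11:72301379-72301628: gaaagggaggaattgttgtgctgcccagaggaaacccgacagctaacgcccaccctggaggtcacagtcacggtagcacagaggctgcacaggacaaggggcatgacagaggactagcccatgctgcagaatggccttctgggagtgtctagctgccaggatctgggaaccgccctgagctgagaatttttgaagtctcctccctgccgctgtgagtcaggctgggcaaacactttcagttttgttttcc

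Ifit1 promoter, chr19:34640639-34640888: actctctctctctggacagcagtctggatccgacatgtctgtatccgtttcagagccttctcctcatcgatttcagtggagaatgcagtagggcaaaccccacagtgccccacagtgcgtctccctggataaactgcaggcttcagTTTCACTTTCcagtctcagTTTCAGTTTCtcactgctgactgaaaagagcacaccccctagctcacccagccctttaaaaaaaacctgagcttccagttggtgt

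Ifit3 promoter, chr19:34583279-34583528: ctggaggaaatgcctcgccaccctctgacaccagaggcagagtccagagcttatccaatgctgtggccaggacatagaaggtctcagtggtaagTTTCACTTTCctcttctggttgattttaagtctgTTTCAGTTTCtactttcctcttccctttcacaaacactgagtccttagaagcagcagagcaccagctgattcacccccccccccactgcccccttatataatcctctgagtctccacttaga

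Ifit1 and Ifit3 held 2 matches each, and these letters were not in the window of Xaf1. Only this motif was searched, on both strands. Of the 12 interferon genes of mean 7 or more, 11 had a promoter sequence and 4 of these (36.4%) held a match, against 936 of all 27025 genes with a promoter (3.46%). Of all 32851 promoters of this length, 2.98% held a match. Of the 69 candidates, 53 had a promoter sequence and 0 held a match.

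As a group the interferon response genes of mean 7 or more stood higher in MPTP at 1 week and near saline at 4 weeks. The 12 members had a median effect of 0.18 early and -0.03 late, and a median difference of effects of -0.21 against -0.03 over all 9895 genes. The difference was below 0 in 10 of the 12, but 1 member, Xaf1, was a candidate. Of 50 listed genes 42 were measured, and their median difference was -0.12. The signal limit counts the MPTP 1 week arrays, so a gene high there can pass through them. Ifit1, of mean 7.02, averaged 7.52 in MPTP at 1 week. Its mean was 7.01 in saline at 1 week, and 6.80 in saline and 6.76 in MPTP at 4 weeks. The median of the 12 is thus partly selected. Below the signal limit, where 3.21% of all genes had an unadjusted p under 0.05, 2 listed genes did in the limma fit. They are Rtp4 (mean 6.60, difference -0.77 ± 0.14) and Ifi203 (mean 5.86, difference -0.59 ± 0.21), and both are named after their values were seen.

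Ifit3, which binds other Ifit proteins, read 7.57 and 8.01 in saline against 8.26 and 8.29 in MPTP at 1 week. At 4 weeks it read 7.84 and 7.10 in saline and 7.61 and 7.20 in MPTP, so that the groups overlapped late but not early. Ifit3 had a difference of effects of -0.55 ± 0.33. Ifit1, a sensor of viral RNA caps, had effects of 0.51 ± 0.23 and -0.03 ± 0.23, and Ifitm3, a membrane protein that blocks viral entry and was picked out after its values were seen, had 0.61 ± 0.32 and 0.11 ± 0.32.

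These genes also varied between the arrays of a group. The mean of the 12 genes was 7.41 and 7.58 in saline and 7.72 and 7.74 in MPTP at 1 week, and 7.52 and 7.12 in saline and 7.38 and 7.19 in MPTP at 4 weeks. Array 1 was above array 2 in both treatments at 4 weeks. Without saline 4 weeks array 1 the median difference of effects was -0.08, and without saline 4 weeks array 2 it was -0.33. The 10 interferon receptors and regulators of mean 7 or more had a median difference of -0.12 with 9 below 0 and 0 candidates. Irf2, a repressor and activator of interferon genes, was at -0.26 ± 0.15, and Tbk1, the kinase upstream of interferon induction, at -0.28 ± 0.16.

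**Figure D3:**
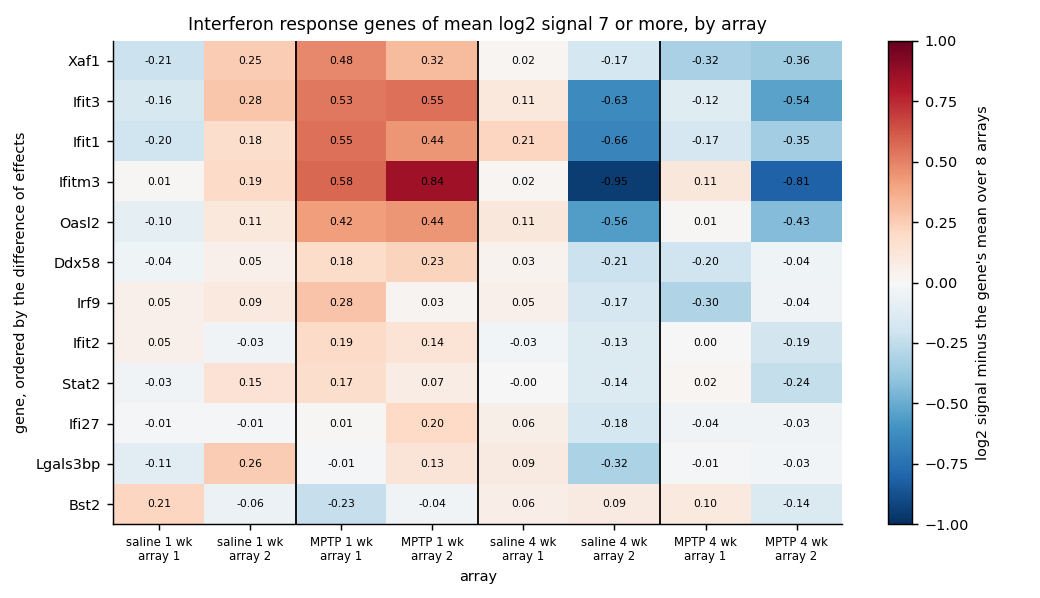
Rows are the 12 interferon response genes of mean log2 signal 7 or more, ordered by the difference of effects, and columns the 8 arrays; colours and numbers give log2 signal minus the mean of the gene over the 8 arrays. The 2 MPTP 1 week arrays are the highest for Ifit3, Ifit1, Ifitm3 and Oasl2, and array 2 is below array 1 in most rows of both groups at 4 weeks.

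Zcchc3, a zinc finger protein that assists the sensing of viral DNA and RNA and is in none of these lists, was a transient candidate at 0.32 ± 0.10 early and -0.07 ± 0.10 late. It read 7.48 and 7.71 in saline against 7.88 and 7.95 in MPTP at 1 week, then 7.71 and 7.78 against 7.65 and 7.71, so that it did not overlap at either time, though the gap at 4 weeks was smaller than the digits shown.

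The transient candidates were mostly higher at 1 week, 20 of 24, with a median effect of 0.29 early and -0.06 late. In all 24 the MPTP and saline arrays did not overlap at 1 week, against 28.8% of the 9895 genes. The p threshold and the shape select for this, so the count is a description. Rny1, the small Y RNA that is bound by the Ro60 protein, had the largest difference of effects of the 69 genes. It read 8.20 and 8.38 in saline against 8.50 and 9.55 in MPTP at 1 week, then 7.98 and 8.01 against 7.99 and 7.73. A single array, MPTP 1 week array 2, stood far above the others. The difference was -0.87 ± 0.37, and -0.35 without that array, which lies outside the threshold (limma, unadjusted p = 0.0841).

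Snora75, a small nucleolar RNA of the class that guides pseudouridylation, read 6.98 and 7.24 in saline and 7.73 and 7.42 in MPTP at 1 week, and its difference of effects was -0.61 ± 0.23. At 4 weeks MPTP array 1 was low at 6.57, and without it the difference was -0.38. Snora75 had a mean of 7.11 over the 8 arrays and of 7.57 in MPTP at 1 week. It averaged 7.11 in saline at 1 week, and 6.95 in saline and 6.80 in MPTP at 4 weeks. Its place above the signal limit is thus partly selected through the MPTP 1 week arrays. Taf1a, a subunit of the selectivity factor of RNA polymerase I, read 7.90 and 8.12 in saline against 8.31 and 8.33 in MPTP at 1 week, and 8.07 and 7.85 against 7.91 and 7.89 at 4 weeks. Its MPTP arrays were close together at both times, but its saline arrays were not. The difference of effects was -0.38 ± 0.15, and it ranged from -0.485 to -0.266 with 1 array left out. Zfp385b, a zinc finger protein, had a difference of -0.38 ± 0.15.

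Micos10 and Marchf5 were further transient candidates, named after their values were seen. Micos10, a subunit of the complex that shapes the cristae, read 8.67 and 8.62 in saline against 9.09 and 8.89 in MPTP at 1 week and 8.63 and 8.63 against 8.58 and 8.68 at 4 weeks. The late groups overlapped and the early ones did not. Marchf5, a ubiquitin ligase of the outer mitochondrial membrane, was at 0.25 early and -0.06 late.

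Lower at 1 week alone were 4 candidates. Cttn, which encodes the actin-binding protein cortactin, read 7.50 and 7.51 in saline against 7.17 and 7.30 in MPTP at 1 week, and 7.34 and 7.35 against 7.45 and 7.30 at 4 weeks. Mrap2, an accessory protein of melanocortin receptors, read 7.17 and 7.00 against 6.62 and 6.85 at 1 week, and 7.05 and 7.15 against 7.01 and 7.25 at 4 weeks. Both were below saline early and overlapped with it late, with differences of effects of 0.30 ± 0.13 for Cttn and 0.39 ± 0.17 for Mrap2.

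The probe set of the microRNA gene Mirlet7d, named after its values were seen, read 7.48 and 7.38 in saline against 7.17 and 6.63 in MPTP at 1 week. At 4 weeks it read 7.31 and 7.08 against 7.29 and 7.24, and the difference of effects was 0.60 ± 0.22. A gene-level probe set does not give the level of a mature strand. The mature strands from RefSeq (GRCm38.p6, minus strand of chromosome 13) are shown to identify the gene, with the seed, bases 2 to 8, in capitals.

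mmu-let-7d-5p, chr13:48536078-48536099: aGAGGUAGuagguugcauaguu

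mmu-let-7d-3p, chr13:48536024-48536045: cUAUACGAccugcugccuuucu

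Late candidates were rare. Foxe1, a forkhead transcription factor, read 7.15 and 7.05 in saline and 6.93 and 7.11 in MPTP at 1 week, then 7.00 and 7.09 in saline against 7.28 and 7.29 in MPTP at 4 weeks. Osbpl11, an oxysterol-binding protein relative involved in lipid transport, read 8.00 and 8.01 in saline and 8.07 and 7.98 in MPTP at 1 week, then 8.07 and 8.14 in saline against 7.83 and 7.86 in MPTP. In both genes the groups overlapped early and were apart late. The differences of effects were 0.31 ± 0.14 for Foxe1 and -0.28 ± 0.12 for Osbpl11.

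The 13 candidates reversed from lower to higher had a median effect of -0.20 at 1 week and 0.17 at 4 weeks. Of them 8 did not overlap at either time, a course seen in 0.566% of all 9895 genes and selected for here. Fdx1, the mitochondrial ferredoxin that passes electrons to cytochrome P450 enzymes, had the smallest unadjusted p among them. It read 7.96 and 7.79 in saline against 7.59 and 7.58 in MPTP at 1 week, and 7.48 and 7.61 against 7.76 and 7.72 at 4 weeks. The 4 groups did not overlap within a time. Between the times MPTP changed by 0.16 and saline by -0.32. Its difference of effects was 0.48 ± 0.13 (limma, unadjusted p = 0.00525).

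Zfpm2, a cofactor of GATA transcription factors, read 7.20 and 7.17 in saline against 6.94 and 7.12 in MPTP at 1 week, and 6.96 and 7.04 against 7.23 and 7.18 at 4 weeks. The groups were apart at both times, at 1 week by little. Ubtd1, a ubiquitin-domain protein, read 7.40 and 7.57 against 7.33 and 7.29, and then 7.21 and 7.32 against 7.46 and 7.43. Dleu7 and Tmem169 had differences of effects of 0.36 ± 0.15 and 0.33 ± 0.13.

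Atg12, the ubiquitin-like protein that is conjugated during autophagosome formation, is a further gene of this shape, named after its values were seen. It read 7.50 and 7.56 in saline against 7.37 and 7.44 in MPTP at 1 week, and 7.26 and 7.19 against 7.40 and 7.36 at 4 weeks. MPTP changed by -0.02 between the times and saline by -0.30. Atg12 had a difference of effects of 0.28 ± 0.12.

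The difference of effects equals the change from 1 to 4 weeks in MPTP minus that in saline, which shows where the signal moved. In 55 of the 69 candidates (79.7%) the MPTP groups moved more than the saline groups, against 66.8% of the 9895 genes. For the genes reversed from lower to higher it was the reverse in 8 of 13. The MPTP groups differed more with time over all genes as well: 864 genes (8.73%) had an unadjusted p under 0.05 for the change in MPTP, 141 higher late (1.42%) and 723 lower (7.31%). For the change in saline there were 177 (1.79%), 18 higher (0.182%) and 159 lower (1.61%). None passed the adjustment in either treatment in the limma fit. The MPTP 1 week group holds 1 of the arrays that stand apart and the array with the highest lens signal, and their part in these counts was not tested.

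**Figure D4:**
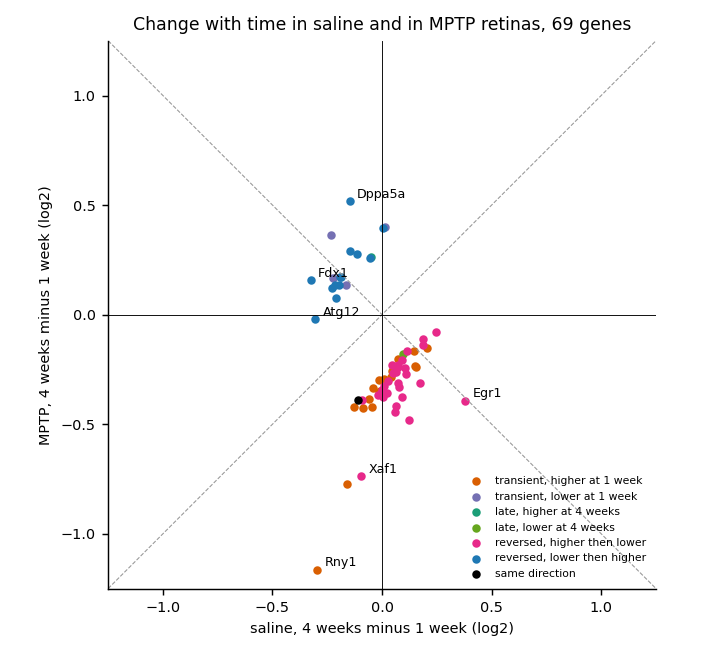
Each point is 1 of the 69 candidates; the x axis is the change from 1 to 4 weeks in saline and the y axis the same change in MPTP, both in log2 units, coloured by shape, and on the dashed diagonals both changes are equal in size. Most points lie between the diagonals above or below the centre, where MPTP moved more than saline, while Atg12 and Fdx1 lie where saline moved more.

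Gene lists of the retina and of the pathways that MPTP is known to touch were read against the background of all 9895 genes, of which 0.697% were candidates. Cytosolic ribosomal proteins had 2 candidates, both lower late, among 52 members, with a median effect of 0.0938 at 1 week and 0.00399 at 4 weeks and 39 members below 0 for the difference. Rpl19 read 9.01 and 9.04 in saline against 9.33 and 9.27 in MPTP at 1 week, and 9.06 and 9.03 against 8.91 and 8.97 at 4 weeks. It stood above saline early and below it late without overlap, with a difference of -0.38 ± 0.12 (limma, unadjusted p = 0.00964). Rpl7 had a difference of -0.29 ± 0.13 and overlapped at 4 weeks. Ribosomal protein genes have many near-identical processed copies in the genome, and the array may not tell these apart.

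Respiratory chain and proteasome genes stood slightly higher in MPTP at both times, by medians of 0.04 to 0.11. At 4 weeks the array means of the complex I list overlapped, at 8.665 and 8.573 in saline against 8.695 and 8.638 in MPTP. Those of the proteasome list overlapped too, at 9.024 and 8.937 in saline against 9.069 and 8.993 in MPTP. The 35 complex I subunits, the target of MPP+, had medians of 0.08 early and 0.04 late, with a median difference of effects of -0.03 and 0 candidates. Complexes II to V (38 subunits) had medians of 0.07 at both times (0.0735 and 0.0650), a median difference of -0.01 and 0 candidates. The 31 proteasome subunits had medians of 0.11 and 0.06 and 0 candidates. After cyclic loess normalization the median difference was above 0 in all 3 lists, at 0.02 for complex I, 0.04 for complexes II to V and 0.01 for the proteasome. Uqcrh, a subunit of complex III, stood apart from saline in the same direction at both times, with effects of 0.36 ± 0.10 and 0.32 ± 0.10.

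No gene of dopamine synthesis, transport or reception was a candidate. Th, tyrosine hydroxylase, makes the precursor of dopamine and was below the signal limit with a mean of 6.92. It read 6.95 and 6.87 in saline against 6.76 and 6.74 in MPTP at 1 week, and 6.95 and 7.10 against 6.98 and 7.04 at 4 weeks. The MPTP arrays were lower early and overlapped late, and the difference of effects was 0.14 ± 0.13. Slc6a3, the dopamine transporter through which MPP+ enters, was also below the limit and had a difference of 0.21 ± 0.20.

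The dopamine receptors were brighter. Drd1 had a difference of effects of 0.11 ± 0.12, Drd2 of -0.04 ± 0.12 and Drd4, the receptor of photoreceptors, of -0.16 ± 0.12, with Drd2 changing sign in some settings. Maoa, a monoamine oxidase that breaks dopamine down, is given after its values were seen. It read 7.42 and 7.41 in saline against 7.16 and 7.23 in MPTP at 1 week, and 7.14 and 7.02 against 7.12 and 7.09 at 4 weeks, and its difference was 0.24 ± 0.12. Saline changed by -0.33 between the times, and the MPTP arrays lay near the late saline level at both times.

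Amacrine cell genes, the class to which dopaminergic cells belong, held 1 candidate among 19, with a median difference of effects of 0.02. This was Tfap2a, a transcription factor of amacrine development, which read 7.56 and 7.77 in saline against 7.96 and 7.90 in MPTP at 1 week, and 7.77 and 7.78 against 7.66 and 7.67 at 4 weeks. It was reversed without overlap, at -0.38 ± 0.13. The transmitters and binding proteins of other amacrine cells were not candidates, with Vip at 0.21 ± 0.14, Sst at 0.17 ± 0.13 and Calb2 at -0.14 ± 0.14.

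Among Mueller glia genes, Rlbp1, Glud1 and Dio2 were lower in MPTP without overlap at both times. Over all 9895 genes, 4.55% were lower in this way, and the list was chosen with earlier results of these data known. Of the 19 glia genes 0 were candidates, and the median effects were -0.07 early and -0.04 late. At each time 6 were above 0, and 14 had a difference of effects above 0. Rlbp1, the retinaldehyde-binding protein of these cells, had effects of -0.52 ± 0.11 and -0.28 ± 0.11, with a difference of 0.24 ± 0.15. Glud1, glutamate dehydrogenase, had effects of -0.35 ± 0.09 and -0.31 ± 0.09, and Dio2, which activates thyroid hormone, -0.46 ± 0.14 and -0.42 ± 0.14. Dkk3, a secreted Dickkopf-family protein, read 8.27 and 8.74 in saline against 7.99 and 8.22 in MPTP at 1 week, and 8.21 and 8.21 against 8.25 and 8.10 at 4 weeks, and its difference was 0.36 ± 0.21. It was below saline early and overlapped with it late. Gpr37, a receptor of glial cells, went the other way, at 0.13 ± 0.09 early without overlap and -0.07 ± 0.09 late.

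Ufm1, a ubiquitin-like modifier named as part of a fixed set, had effects of 0.60 ± 0.13 early and 0.40 ± 0.13 late. It was higher in MPTP without overlap at both times, as were 3.39% of all 9895 genes. Tmem229b, the candidate with the same direction at both times and outside the naming rule, read 8.90 and 8.97 in saline against 9.42 and 9.43 in MPTP at 1 week, and 8.89 and 8.77 against 9.05 and 9.01 at 4 weeks. Its effect was 0.49 early and 0.21 late, without overlap at either time.

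Gliosis and acute stress genes had a median difference of effects of 0.12, 9 of 10 above 0 and 0 candidates. They turned on the arrays at 4 weeks, where array 1 exceeded array 2 in both treatments: the list means were 7.99 and 7.39 in saline and 8.09 and 7.42 in MPTP. Serpina3n, an acute-phase protease inhibitor of reactive glia, read 7.98 and 6.68 in saline and 8.23 and 7.02 in MPTP at 4 weeks, and its difference was 0.31 ± 0.59. Without saline 4 weeks array 2 the median of the list was -0.12, and without MPTP 4 weeks array 1 it was -0.23. Gfap, the intermediate filament of reactive glia, was below the signal limit and had a difference of 0.22 ± 0.17.

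Rod phototransduction genes had a median difference of -0.05, 20 of 23 below 0 and 0 candidates. Gngt1, the gamma subunit of rod transducin, read 11.54 and 11.65 in saline against 11.84 and 11.82 in MPTP at 1 week, and 11.64 and 11.68 against 11.75 and 11.61 at 4 weeks. It stood above saline early and overlapped with it late, with a difference of -0.22 ± 0.13. Abca4, the retinoid flippase of the outer segment, was at -0.21 ± 0.15, and Rom1, a disc rim protein, had effects of 0.27 ± 0.08 and 0.13 ± 0.08. After cyclic loess normalization the median of the rod list was -0.01.

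Pigment epithelium and lens genes had the lowest medians of the lists described, at -0.30 and -0.29, and visual cycle genes, which share members with the pigment epithelium list, had -0.21. Over all measured members, dim ones included, the medians were -0.05 for 17 pigment epithelium genes, -0.03 for 20 lens genes and -0.16 for 15 visual cycle genes, of which 7, 9 and 13 passed the signal limit. They held 0 candidates each, and the medians of the brighter members moved with a single array. Rpe65, the retinoid isomerase of the pigment epithelium, read 8.14 and 7.49 in saline and 7.73 and 9.11 in MPTP at 1 week, and 8.71 and 8.07 in saline and 8.34 and 7.85 in MPTP at 4 weeks. The highest value was that of MPTP 1 week array 2, and the groups overlapped at both times. Without that array the difference of Rpe65 went from -0.90 to -0.21, and the medians were 0.02 for the visual cycle, 0.04 for the pigment epithelium and 0.49 for the lens. Crygs, a lens crystallin, read 9.71 on that array against 7.05 to 8.42 on the others.

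Of the immediate early genes, which neurons switch on within minutes of a stimulus, 1 of 7 was a candidate. Egr1, an activity-regulated zinc finger factor, read 7.47 and 7.12 in saline and 8.02 and 7.39 in MPTP at 1 week, and 7.86 and 7.49 in saline and 7.61 and 7.02 in MPTP at 4 weeks. Array 1 was above array 2 in all 4 groups, so that MPTP and saline overlapped at both times. The difference of effects was -0.77 ± 0.34, and it was -0.46 without MPTP 1 week array 1, -0.48 without MPTP 4 weeks array 2 and -0.29 without the 2 arrays that stand apart, all outside the threshold. The list median was -0.19, and it was -0.00133 without saline 1 week array 2. Clock genes had a median of -0.07 with 14 of 18 below 0 and 0 candidates, for example Ciart, which represses clock transcription, at -0.39 ± 0.23.

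**Figure D5:**
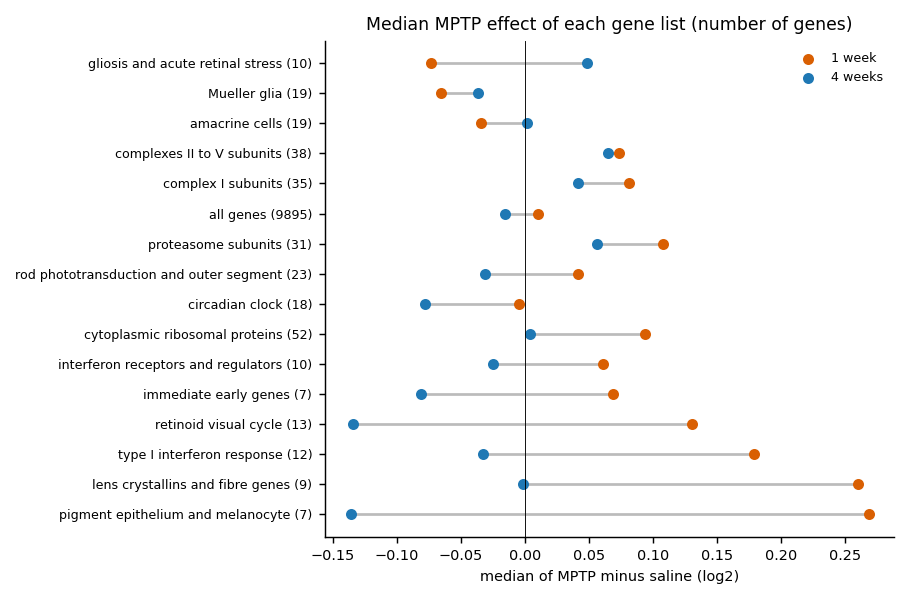
Each row is a gene list with its number of genes of mean log2 signal 7 or more; the x axis is the median of MPTP minus saline in log2 units, orange at 1 week and blue at 4 weeks, with rows ordered by the median difference of effects. Pigment epithelium, lens, visual cycle and interferon response genes are farthest to the right at 1 week, and the row for all genes lies near 0 at both times.

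The number of candidates rested on single arrays. Leaving out saline 1 week array 2 gave 425 genes in place of 69, leaving out MPTP 1 week array 2 gave 254, and leaving out both arrays that stand apart gave 355. Leaving out saline 4 weeks array 1 gave 31 and saline 4 weeks array 2 gave 41. The genes changed as well as their number: with 1 array left out, between 17 (without saline 4 weeks array 1) and 50 (without saline 1 week array 2) of the 69 were among the genes under the threshold, and 36 were without the 2 arrays that stand apart. Like the other candidates, Mrpl41, Prmt8, Fdx1, Xaf1 and Rpl19 kept the sign of their difference in all 17 alternatives run. The difference ranged from -0.568 to -0.293 for Mrpl41, from -0.533 to -0.395 for Prmt8 and from 0.396 to 0.568 for Fdx1. For Xaf1 it ranged from -0.875 to -0.408 and for Rpl19 from -0.408 to -0.267. None of these genes passed the adjusted threshold in the limma fits. Where in the genome the probe sets of Mrpl41 and Rpl19 lie was not checked.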

How the data were processed

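Retinal RNA on 8 arrays was measured as log2 signal. The authors deposited log2 values, and Affymetrix Expression Console with RMA made them according to what is listed per the submitters' processing notes. The medians and spreads of the deposited values over all genes differed between arrays. No batch or scan date was given in the labels. Of 28944 probe sets, 21789 named exactly 1 gene in the platform annotation, 1621 named several and 5534 none; the last 2 kinds were left out. For the 999 genes with several probe sets the brightest was kept, which left 19938 genes, of which 82 had no entry among the RefSeq names (GRCm38.p6).

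A mean per group was fitted to all genes together by limma 3.58.1 under R 4.3.3 (lmFit, contrasts.fit and eBayes, two-sided), which left 4 residual degrees of freedom. Benjamini-Hochberg adjustment ran over the 19938 genes, with a threshold of 0.05. Errors are standard errors of that fit, and the number of arrays limits the precision. The fit and the sorting into shapes were tried on simulated data that held transient, late and reversed changes. The planted differences were larger than those of every candidate, which were 0.274 to 0.867 in size. How well changes as small as these are sorted was therefore not tested. The named genes are, in each shape and direction, the 5 with the largest difference of effects among genes of mean 7 or more, at an unadjusted p under 0.05 and without overlap at the time of the larger effect (at both times for reversed genes). Predicted, clone, olfactory and microRNA names were passed over. To these come up to 4 members of each described list with the smallest unadjusted p, and a fixed set. The fixed set is Th, Slc6a3, Drd1, Drd2, Drd4, Rlbp1, Glud1, Dio2, Ufm1, Uqcrh and Gfap. Of these, Rlbp1, Glud1, Dio2, Ufm1 and Uqcrh did not overlap with saline at either time. The set may have been chosen with earlier results of these data known, so their values are a description. Genes named outside the rule are marked as named after their values were seen. The members and the 35 gene lists were chosen with earlier results of these data known. The labels do not say whether array numbers pair the samples, and the main fit did not pair them. Departures of same-numbered arrays from their group means correlated between groups at -0.383 to 0.207 over all genes, which does not settle it. Alternatives were other normalizations, centring, signal limits and size ratios, the mean of probe sets, trend and robust settings, a fit of the arrays of 1 time, a block for the array number and each array left out. Promoter and microRNA sequences came from RefSeq. Python 3.11.15 with matplotlib 3.10.9 drew the figures.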

Additional observations from a re-analysis of the deposited data

Results flagged for a closer look

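For 20 of the genes named in the text, both MPTP arrays lay on one side of both saline arrays at 1 week and on the other side at 4 weeks. The rule for named genes chose 15 of them, and the other 5 (Atg12, Paf1, Pcgf6, Rtp4 and Suv39h2) were named after their values were seen. The difference of effects was tested for each in the limma fit, and none passed the Benjamini-Hochberg adjustment. Over all genes of mean 7 or more, 2.01% went from higher to lower in this way and 0.566% from lower to higher. From higher to lower the differences of effects were -0.766 for Rtp4, which is below that mean, -0.642 for Xaf1, -0.502 for Haus6, -0.482 for Mrpl41, -0.464 for Prmt8, -0.408 for Zfp623 and -0.390 for Zcchc3. They were -0.380 for both Rpl19 and Tfap2a, -0.330 for Suv39h2, -0.296 for Pcgf6, -0.282 for Rpl30, -0.275 for Paf1 and -0.272 for Rpl34. From lower to higher they were 0.480 for Fdx1, 0.364 for Zfpm2, 0.358 for Dleu7, 0.349 for Ubtd1, 0.330 for Tmem169 and 0.283 for Atg12. The rule asks for this pattern in reversed genes, so their course is a description; members of a described list did not need it to be named.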

How the results depend on the processing

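With 2 arrays per group, no gene passed the adjusted threshold for the difference or for either effect under any setting run in limma. The 69 candidates kept the sign of their difference in every setting, on data that also chose them. Other values are counts of genes at an unadjusted p under 0.05 and mean 7 or more unless stated. The causes of their shifts were not tested. Genes higher late than early, 18 as reported, were 40 after quantile normalization, 40 after cyclic loess, 35 with only genes of mean 7 or more tested, 34 with trend and robust settings and 102 without the 2 arrays that stand apart; genes lower late, 51 as reported, were 90, 80 and 253 under the last 3. Without those 2 arrays, 1346 genes of any signal were under the threshold, against 391. At 1 week, 350 genes became 572 with only genes of mean 7 or more tested, 581 with trend and robust settings, 548 without the 2 arrays and 164 with only the arrays of that time; at 4 weeks, 109 became 173 after quantile normalization, and 195, 202, 313 and 313 in those 4 settings. Transient genes, 24 as reported, were 37 with trend and robust settings, 174 without the 2 arrays, 45 at a signal limit of 6 and 13 at 8. Reversed genes, 42 as reported, were 81 with only genes of mean 7 or more tested, 71, 173, 119 and 11 in the same order. Late genes, 2 as reported, were 6 after quantile normalization, 8 with only genes of mean 7 or more tested, 5 with trend and robust settings, 5 without the 2 arrays, 6 and 0 at limits of 6 and 8, and 6 at a size ratio of 2. Leaving out 1 array at a time gave 17 to 326 genes lower late, 8 to 99 higher, 222 to 1445 of any signal, 246 to 667 at 1 week, 22 to 209 at 4 weeks, 2 to 174 transient, 0 to 25 late and 23 to 248 reversed. With the array number as a replicate block, 49 genes were candidates, 42 of them among the 69, and late genes numbered 0; crossed numbers, tried after seeing the data, gave 81 candidates and 6 late genes. In single genes the sign of the difference turned. Drd2 was 0.00534 after quantile normalization, 0.00694 after cyclic loess and 0.0174 with the 2 arrays left out, Uqcrh 0.00326 after cyclic loess and 0.0481 with the 2 arrays left out, Glud1 -0.0113 with them left out, and Atp5pb 0.0116 with the mean of its probe sets. Leaving out 1 array gave both signs for Drd2 (-0.0902 to 0.000965), Uqcrh (-0.155 to 0.0671), Glud1 (-0.0153 to 0.0995), Dio2 (-0.205 to 0.286), Egr3 (-0.381 to 0.00857), Ttr (-0.788 to 0.199), Cryba2 (-0.759 to 0.0854), Crygs (-1.94 to 0.726), Lrat (-0.859 to 0.0402), Rgr (-0.977 to 0.0432), Stat3 (-0.0361 to 0.312), Edn2 (-0.240 to 0.713) and Serpina3n (-0.343 to 0.965).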

Other observations

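The other gene lists held no candidate for the difference of effects, and their medians lay near that of all 9895 genes (-0.03) or rested on few genes. Among retinal neurons the medians were -0.04 for 10 cone genes, -0.01 for 17 bipolar genes, -0.08 for 6 horizontal cell genes, 0.05 for 12 ganglion cell genes and -0.03 for 16 genes of the photoreceptor ribbon synapse. Genes of dopamine synthesis, storage and breakdown (6 genes) and of dopamine receptors and signalling (8 genes) both had a median of -0.02. Familial Parkinson disease genes (10 genes) had -0.01.

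Stress and housekeeping lists were as close to 0. The unfolded protein response (18 genes) had a median of 0.03, heat shock and chaperones (13) -0.03, glutathione and NRF2 targets (18) -0.04, the spliceosome (27) -0.04 and glycolysis (15) -0.000745. MHC class I and antigen processing (5 genes) had 0.12, opposite in sign to the interferon response genes, with 4 of 5 above 0.

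Of markers of other tissues, 3 microglia genes had a median difference of 0.11, 5 genes of surface epithelium 0.05, 3 vascular genes -0.02 and 4 muscle genes 0.000572. Erythroid and oligodendrocyte lists each had 1 gene above the signal limit, at -0.11 and 0.30.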
